A study of Mus musculus with 6 samples.

Results

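The 100 genes described here are those with the lowest ratio of intron reads in retinas after optic nerve crush (ONC) to intron reads in sham retinas. They come from 35485 genes in the deposited tables, of which 6939 had at least 50 intron reads and at least 50 exon reads in every pool and could be ranked (called kept genes below). Intron reads were the reads on a gene minus the reads on its exons. They were divided by the sum of intron reads over the kept genes of the same pool, so that levels are intron reads per 1000000 intron reads of the kept genes (IPM). The gene Esp38 was left out of the sum. The members were thus selected on the intron values of the same 6 pools that are described below, and these values carry no test.

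A gene is first copied whole into pre-mRNA, and the introns are then cut out and broken down quickly while the joined exons remain as mature mRNA. Intron reads therefore come largely from unfinished transcripts, and exon reads largely from mature mRNA, which lasts much longer in the cell. In the retina most of both comes from rod photoreceptors, whereas the retinal ganglion cells (RGCs), the neurons whose axons form the optic nerve, are a small share of the cells.

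The samples were retinas of wild type C57BL/6 mice aged 12 weeks. In the ONC group the optic nerve was exposed and crushed with forceps for 10 seconds at 2 mm behind the globe. In the sham group it was exposed and not crushed. Retinas were taken 2 days after surgery, each of the 3 ONC and 3 sham samples was a pool of RNA from 6 retinas of 6 mice, and the spread given below is that between pools. The exon reads ranged from 17343945 to 20358008 per pool. Gnat1, the alpha subunit of rod transducin, stood at 5706 to 6550 RPKM (exon reads scaled by exon length and by mapped reads) in the 6 pools, and none of the 18 rod markers was at 0 in a pool.

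Intron reads differed between pools in a way that went with gene length. Kept genes were split into 10 classes of equal size by span, the distance from gene start to gene end. In sham 3 the median deviation from the mean of the 6 pools went from -0.63 on the log2 scale in the shortest class to 0.43 in the longest, whereas in ONC 2 it went from 0.51 to -0.25. ONC 3 went from 0.32 to -0.07, and the other 3 pools stayed between -0.11 and 0.10 in all classes. Intron reads made up 24.1% of the reads on kept genes in sham 3, against 19.3% and 19.1% in sham 1 and sham 2 and 15.6%, 15.4% and 17.8% in ONC 1 to 3. Sham 3 and ONC 2 thus had the steepest trends with span. By the distance between pools of 1 group (chi-square per degree of freedom over the intron reads of the kept genes), sham 3 was at 27.4 and 31.0 from the other sham pools, which were 6.90 apart. Among the ONC pools ONC 1 was at 36.1 from ONC 2 and 25.7 from ONC 3, and these 2 were much closer to each other. The intron log2 ratio of the gene groups and of the main genes is therefore also given without sham 3 and ONC 2, and over all 100 genes also without sham 3 and ONC 1.

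**Figure D1:**
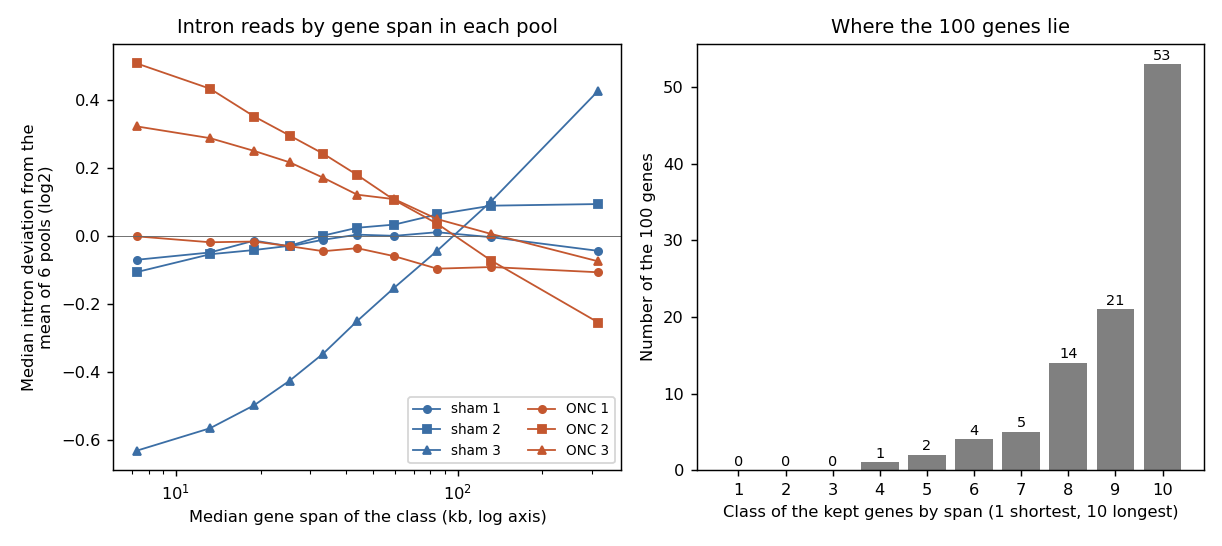
Left, the median deviation of intron reads from the mean of the 6 pools (log2) in each class of the kept genes by span, against the median span of the class (kb, log axis), with 1 line per pool. Right, the number of the 100 genes in each class, which rises from 0 in the 3 shortest classes to 53 in the longest.

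The sequences before the start of the 3 genes with the lowest ratio are shown first, because they directly precede the first bases of the pre-mRNA. They are the 250 bases before the RefSeq start in GRCm38.p6, 5′ to 3′ on the strand of the gene. Aig1 lies at chr10:13868958-13869207 on the minus strand, Esrrb at chr12:86360867-86361116 on the plus strand and Epha3 at chr16:63864176-63864425 on the minus strand. The RefSeq start was 127, 0 and 18 bases from the gene edge given in the files. Of the 100 genes, 71 had an entry in the RefSeq promoter table.
Aig1: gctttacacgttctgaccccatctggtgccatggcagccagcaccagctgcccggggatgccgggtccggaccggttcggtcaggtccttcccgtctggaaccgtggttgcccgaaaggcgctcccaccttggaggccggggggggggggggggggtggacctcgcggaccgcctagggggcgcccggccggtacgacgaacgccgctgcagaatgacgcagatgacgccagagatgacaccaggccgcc
Esrrb: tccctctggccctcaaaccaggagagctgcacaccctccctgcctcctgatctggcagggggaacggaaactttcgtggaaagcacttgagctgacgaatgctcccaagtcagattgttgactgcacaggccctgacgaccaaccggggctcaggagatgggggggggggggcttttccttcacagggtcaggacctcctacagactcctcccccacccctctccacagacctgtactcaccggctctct
Epha3: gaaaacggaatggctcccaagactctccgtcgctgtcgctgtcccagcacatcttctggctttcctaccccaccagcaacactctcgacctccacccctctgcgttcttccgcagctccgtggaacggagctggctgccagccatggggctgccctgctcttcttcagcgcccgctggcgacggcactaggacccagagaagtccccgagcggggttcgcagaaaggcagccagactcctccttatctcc
Each window was searched on both strands for the letters of 5 promoter motifs, and none occurs in any of the 3 windows, so no base is capitalised. The table holds 32851 windows of the same length. The E-box, CACGTG, occurs in 6.02% of them. The cAMP response element, TGACGTCA, occurs in 1.55%, and none of the 5 motifs contains another. For the GC box, searched as GGGCGG, the share was 32.7%. For the TATA box, searched as TATAAA, it was 12.4%, and for the CCAAT box, searched under the letters of its name, 33.9%. The 3 windows hold 70.4%, 60.8% and 62.8% G and C, beside a median of 52.4% over the whole table, and 24, 6 and 16 CG pairs.

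Several members also carry microRNAs within their span. RefSeq places 12 microRNA hairpins within 10 of the 100 genes. The strand of a host was taken from the RefSeq promoter table, which had an entry for 71 of the 100 genes. A host without an entry was counted as not matching. At least 9 of the hairpins, in at least 8 genes, thus lie on the strand of the host. They are shown because the transcript of the host holds their letters. The hosts Lingo2 (a leucine-rich repeat membrane protein) and Mgat4c (a glycosyltransferase) are given here. In Lingo2 the hairpin Mir873a is at chr4:36668510-36668586 and Mir876 at chr4:36645373-36645453, both on the minus strand, and in Mgat4c Mir3059 is at chr10:101772692-101772772 on the plus strand (GRCm38.p6). Capitals mark the seed, bases 2 to 8 of the mature microRNA.
miR-873a-5p: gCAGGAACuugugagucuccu
miR-873a-3p: gAGACUGAcaaguucccggga
miR-876-5p: uGGAUUUCucugugaaucacua
miR-876-3p: uAGUGGUUuacaaaguaauuca
miR-3059-5p: uUUCCUCUcugccccauagggu
miR-3059-3p: cCUCUAGGgaagagaagguugg
No 2 of these 6 share a seed. The intron log2 ratio of the hosts was -0.71 for Lingo2 and -0.89 for Mgat4c (-0.62 and -0.50 without the pools sham 3 and ONC 2), and the microRNAs themselves were not measured in these libraries.

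Over the 100 genes the intron log2 ratio of ONC to sham ranged from -1.21 to -0.70, with a median of -0.79. The median of the kept genes was 0.19 on this scale, so the median member lay about 1 log2 unit below the median kept gene. With TMM factors of the intron reads, which put the kept genes at 0.02, the median of the members was -0.99. The median level of the members was 75.1, 87.0 and 112 IPM in sham 1 to 3 and 54.98, 45.3 and 59.7 in ONC 1 to 3. All 3 ONC pools thus lay below all 3 sham pools, and sham 3 was the highest. Single genes were less uniform. The pools did not overlap between groups in 79 members and overlapped in 21, and 7.28% of the kept genes had every ONC pool below every sham pool. Both figures follow from the choice of the genes. Sham 3 was the highest pool in 77 of the 100 members and in 973 of the 6939 kept genes, and ONC 2 was the lowest in 47 members, ONC 1 in 33 and ONC 3 in 18.

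**Figure D2:**
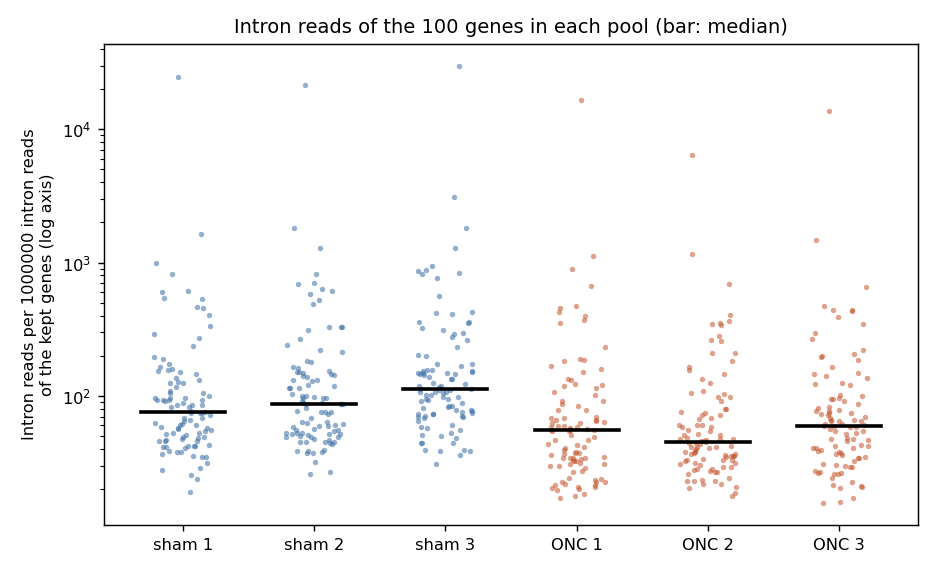
Intron level in IPM (log axis) for the 100 genes in each of the 3 sham (blue) and 3 ONC (orange) pools. Each point is 1 gene and the bar is the median, which was 75.1 to 112 in the sham pools and 45.3 to 59.7 in the ONC pools.

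Without sham 3 and ONC 2, all 100 members had a log2 ratio below 0, from -1.19 to -0.05. Their median was -0.59 beside 0.05 for the kept genes, of which 42.4% were below 0. The pools left had taken part in the choice of the members, so values below 0 follow in part from it. The same holds without sham 3 and ONC 1. The 2 remaining ONC pools lay below the 2 remaining sham pools in 80 members and in 14.2% of the kept genes. In 87 members the value was closer to 0 than with all pools, and in 25 it was under 0.5 times as large. When the rule was applied to these 4 pools alone, 40 of the 100 members were again among the lowest 100. Leaving out sham 3 alone kept 56 of the 100, leaving out ONC 1 kept 56, and leaving out any 1 of the other 4 pools kept 69 to 79. Without sham 3 and ONC 1, the members ranged from -1.25 to -0.11, with a median of -0.62 beside 0.17 for the kept genes, of which 31.9% were below 0, and 46 were again among the lowest 100.

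The same measure was also read in pools that the choice had not used. The rule was applied to 2 ONC and 2 sham pools, and the 100 genes so chosen were measured in the 2 pools left out, for each of the 9 pairs. The median log2 ratio of the chosen genes in the pools left out ranged from -0.68 to -0.11, beside -0.06 to 0.50 for the kept genes, and 58 to 91 of the 100 chosen genes were below 0, where 25.4% to 55.5% of the kept genes were. The pairs of ONC 1 with sham 1 (58, beside 53.8%) and of ONC 1 with sham 2 (65, beside 55.5%) gave counts near the share of all kept genes. Relative to the median of the kept genes in the same class of span, the median of the chosen genes ranged from -0.45 to 0.00. Between 41 and 74 of the genes so chosen were members. The 9 pairs share pools, so their range is a description.

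Aig1, a membrane enzyme that hydrolyses fatty acid esters, had the lowest ratio. Its intron level was 88.9, 97.0 and 84.5 IPM in sham 1 to 3 and 39.2, 35.6 and 42.3 in ONC 1 to 3, a ratio of 0.433. The 3 pools of each group lay close together and far from the other group, and sham 3 was not the highest. Its exon level was 15.4, 15.1 and 15.5 RPKM in sham and 19.5, 14.6 and 17.0 RPKM in ONC, with overlapping groups and an exon log2 fold change of 0.03 ± 0.13 (SE). Intron reads made up 44.7% to 48.7% of its reads in sham and 18.7% to 24.6% in ONC. Without sham 3 and ONC 2 its intron log2 ratio was -1.19 and it was again the lowest of all kept genes.

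Esrrb, an orphan nuclear receptor active in rods, was second. Its intron level was 407, 577 and 558 IPM in sham and 188, 211 and 269 in ONC, a ratio of 0.434. The groups were far apart, and here sham 1 was the lowest sham pool. Its exon level was 72.8, 83.4 and 69.3 RPKM in sham and 54.9, 51.3 and 70.2 RPKM in ONC, with ONC 3 above sham 3. Its intron log2 ratio was -1.21, and -1.11 without sham 3 and ONC 2. The exon log2 fold change was -0.47 ± 0.09 (adjusted p = 0.00288, edgeR). It was the only member among the 18 rod markers, all of which were kept genes. The median intron log2 ratio of those 18 was 0.36, and 1 of the 18, Esrrb itself, was below 0. All kept genes had a median of 0.19, with 31.2% below 0. The rod markers were short, with a median span of 11.2 kb. Relative to the kept genes in the same class of span, their median log2 ratio was 0.00. Without sham 3 and ONC 2 the median intron log2 ratio of the rod markers was 0.09, and 2 were below 0. Summed over the list, exon levels were 28408 to 29512 RPKM in sham and 30938 to 32916 RPKM in ONC. In the edgeR fit the median exon log2 fold change of the 18 was -0.01. Scaling by all reads on genes, as RPKM does, put the median of all genes fitted with edgeR at 0.13. The higher RPKM sums in ONC are therefore not read as a rise of the rod markers.

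Epha3, a receptor for ephrins that guides axons, had 36.5, 60.1 and 88.9 IPM in sham and 31.3, 26.8 and 26.6 in ONC, a ratio of 0.457. The sham pools differed by more than 2-fold among themselves, with sham 3 at the top, and sham 1 lay just above ONC 1. Its intron log2 ratio was -1.13, and -0.74 without sham 3 and ONC 2. The exon level was 1.39 to 1.80 RPKM in sham and 1.59 to 1.85 RPKM in ONC, so the exon groups overlapped. Trps1, a GATA-type zinc finger repressor, had 99.2, 88.5 and 135 IPM in sham and 42.8, 38.0 and 66.4 in ONC, a log2 ratio of -1.13 that was -0.78 without sham 3 and ONC 2. Its exon log2 fold change was -0.34 ± 0.09, with an adjusted p of 0.0498 that ranged from 0.0201 to 0.865 over 17 other settings.

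Introns held most of the reads in every pool for 2 of the 10 lowest genes. Zc3h7a, a CCCH zinc finger protein, had 24775, 21524 and 29890 IPM in sham and 16562, 6447 and 13748 in ONC. All ONC pools lay below all sham pools, and ONC 2 was far below the other 2 ONC pools. The intron log2 ratio was -1.05, and -0.61 without sham 3 and ONC 2. In exon reads it stood at 12.0 to 13.3 RPKM in sham and 13.3 to 16.9 RPKM in ONC, and introns held 92.2% to 99.2% of its reads. Of its intron reads 77.6% were uniquely mapped, and RefSeq places an snRNA gene, Gm24145, inside its span at chr16:11167105-11167267 (GRCm38.p6). The part of that gene in the intron reads was not tested. Zc3h7a alone held 2.15% to 2.99% of the intron reads of the kept genes in sham and 0.645% to 1.66% in ONC. With it, the 100 genes held 3.85% to 5.35% in sham and 1.59% to 2.72% in ONC. Without it, they held 1.51%, 1.73% and 2.43% in sham 1 to 3 and 1.08%, 0.955% and 1.13% in ONC 1 to 3. The second, 2210408I21Rik, had 815, 613 and 1810 IPM in sham and 896, 353 and 298 in ONC. Introns held 80.6% to 97.4% of its reads. Its groups overlapped, and its log2 ratio was -1.07 with and -0.26 without sham 3 and ONC 2.

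The other 4 of the 10 lowest were Dip2b, Taok1, 6230409E13Rik and Hk2. Dip2b, a disco-interacting protein, had 93.6, 131 and 134 IPM in sham and 64.2, 51.5 and 61.4 in ONC. Taok1, a kinase upstream of stress-activated kinases, had 56.2, 52.7 and 73.6 in sham and 32.6, 27.5 and 32.5 in ONC. 6230409E13Rik had 51.2, 61.5 and 71.1 in sham and 22.7, 23.4 and 47.7 in ONC. The groups of all 3 were apart, and in all 3 sham 3 was the highest pool. Their intron log2 ratios were -1.02, -0.98 and -0.97, and without sham 3 and ONC 2 they were -0.84, -0.74 and -0.68. Their exon log2 fold changes were -0.22 ± 0.11, -0.25 ± 0.07 and -0.10 ± 0.07, with adjusted p of 0.319, 0.0643 and 0.509 (edgeR). The value of Taok1 missed the threshold of 0.1 under 9 of 17 other settings.

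**Figure D3:**
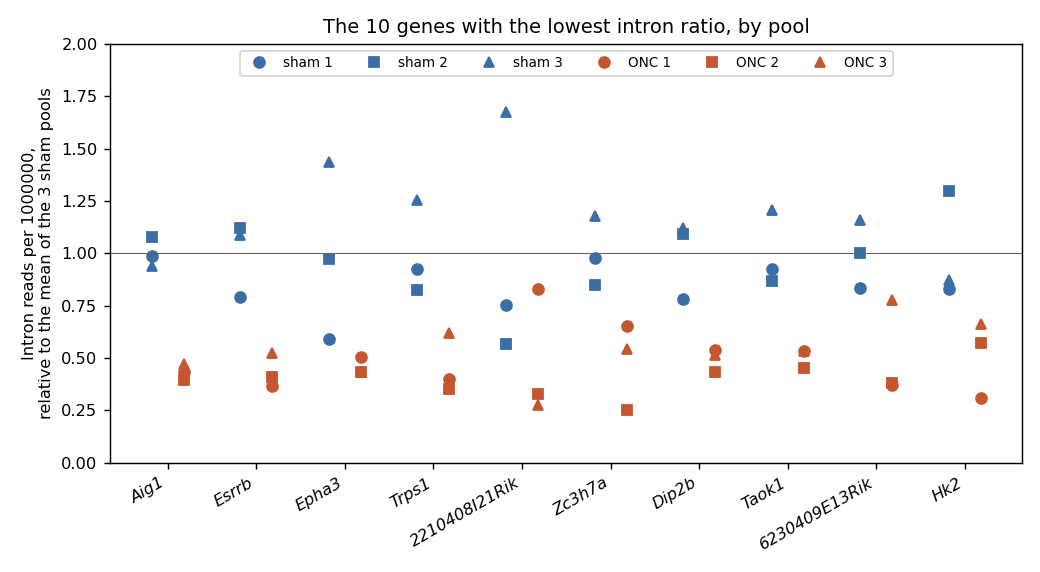
Intron level (IPM) of the 10 genes with the lowest ratio, in each pool relative to the mean of the 3 sham pools (blue, sham; orange, ONC; circle, square and triangle are pools 1, 2 and 3). The groups are apart in 9 of the 10 genes and overlap in 2210408I21Rik, where sham 3 is far above the other pools.

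Exon reads were compared with edgeR over the 13670 genes whose mean RPKM exceeded 0.3 in a group, and a gene was called when the adjusted p was under 0.1 and the fold change above 1.5. All 100 members were among these genes. Exon reads of 6 members were called lower and of 0 called higher, where 0.834% of all fitted genes were called lower and 0.827% higher. On the adjusted p alone, 28 members were lower and 0 higher, and the share of lower genes was 3.72% of all fitted genes, 4.37% of the kept genes and 15.6% of the kept genes in the longest class of span. The exon reads come from the same pools and the same contrast that chose the genes, so these counts are a description. At an unadjusted p under 0.05, 1 member was higher in exon reads, and DESeq2 also gave 0 higher on the adjusted p.

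The exon log2 fold change of the members had a median of -0.19 and ranged from -0.82 to 0.24, beside a median of 0.00 for the kept genes. It was below 0 in 87 members and above 0 in 13, and 23 members were within 0.1 of 0. Among the kept genes 50.5% were below 0. Scaling by all reads on genes, as RPKM does, moved the median of all fitted genes from 0.01 to 0.13, and then 65 members were below 0, 14 were lower on the adjusted p alone and 2 higher. Leaving out 1 pool moved the count of 28 to between 12 and 48. It was 48 without ONC 1, where 9.23% of all fitted genes were lower, and 24 without sham 1 (3.24%). It was 18 without ONC 3 (2.00%), 15 without ONC 2 (1.91%), 15 without sham 2 (1.60%) and 12 without sham 3 (1.71%), and 8 without sham 3 and ONC 2 together (0.936%). The share of all fitted genes was thus also higher without ONC 1 and lower without any other pool. The 6 called lower became 2 without ONC 2, 10 without ONC 1 and 3 without sham 3 and ONC 2 together.

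The intron log2 ratio minus the exon log2 fold change had a median of -0.62, beside 0.19 for the kept genes. The choice used the intron values and not the exon values, so a negative difference follows in part from it. This difference and the counts drawn from it are therefore a description. In 84 members the exon value was lower by less than 0.5 times the intron value or was not lower, and in 1 member, Rbpms, it was lower by as much as the intron value or more. Without sham 3 the median difference was -0.41, and without sham 3 and ONC 2 it was -0.36, beside 0.11 and 0.06 for the kept genes. The median member had 26.6%, 28.4% and 40.7% of its reads in introns in sham 1 to 3 and 16.5%, 17.1% and 21.98% in ONC 1 to 3. Over the kept genes these medians were 19.7%, 20.1% and 22.4% in sham and 15.9%, 17.1% and 19.4% in ONC. The median share of the members was above that of the kept genes in sham and close to it in ONC. The choice took genes with few intron reads in ONC relative to sham, so this pattern follows in part from it.

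**Figure D4:**
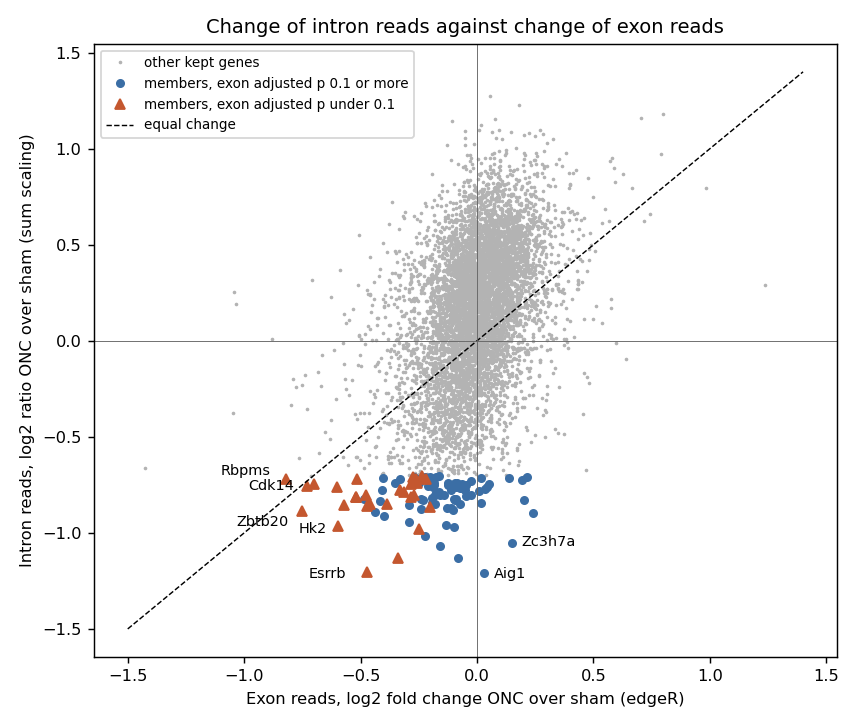
Intron log2 ratio (y axis, sum scaling) against exon log2 fold change (x axis, edgeR), ONC over sham, for the 6939 kept genes. The 100 members (coloured) lie between -1.21 and -0.70 on the y axis, where the choice put them, and spread from -0.82 to 0.24 on the x axis, and triangles are the 28 with an exon adjusted p under 0.1.

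Reads that cross splice sites gave a further reading of mature and unfinished transcripts. Exon-exon reads, which only spliced RNA gives, were lower on the adjusted p alone in 12 members and higher in 0 (1 at an unadjusted p under 0.05), where 1.68% of 13180 fitted genes were lower. All 12 were among the 28. Their median log2 fold change over the members was -0.22, and 73 were below 0. The 100 genes held 0.560%, 0.577% and 0.567% of the exon-exon reads of the kept genes in sham and 0.517%, 0.452% and 0.493% in ONC. Of the intron-exon reads, which only unspliced RNA gives, they held 0.345%, 0.361% and 0.476% in sham and 0.289%, 0.249% and 0.282% in ONC. Both shares were lower in each ONC pool than in each sham pool, and sham 3 stood out only for the intron-exon reads. These reads come from the same pools and the same contrast that chose the genes. The lower shares follow in part from the choice, and the shares and counts are a description. Intron-exon reads of the 100 genes numbered 790 to 1388 per pool in all and are counted among the exon reads in the files.

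6 members were called lower in exon reads. Cdk14, a cyclin-dependent kinase, had 23.9, 25.04 and 24.9 RPKM in sham and 15.8, 16.4 and 16.4 RPKM in ONC (log2 fold change -0.73 ± 0.06, adjusted p = 6.04e-07, edgeR). Its intron level was 96.3, 149 and 146 IPM in sham and 78.0, 72.2 and 81.3 in ONC. Neither kind of read overlapped between the groups, and the intron log2 ratio of -0.76 was close to the exon value. Hk2, the hexokinase that photoreceptors and many growing cells use, had 49.6, 67.3 and 50.9 RPKM in sham and 41.1, 37.3 and 42.1 RPKM in ONC (-0.60 ± 0.09, adjusted p = 0.000184). Its intron level was 97.1, 152 and 102 IPM in sham and 35.9, 66.8 and 77.4 in ONC, and sham 2 was the highest pool in both. The intron log2 ratio of Cdk14 was -0.62 without sham 3 and ONC 2, and that of Hk2 went from -0.96 to -1.14.

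Rbpms, an RNA-binding protein that marks RGCs, had 9.29, 10.5 and 10.4 RPKM in sham and 5.61, 6.62 and 6.41 RPKM in ONC. Its exon log2 fold change was -0.82 ± 0.11 (adjusted p = 6.23e-05, edgeR). Its intron level was 85.1, 86.5 and 75.8 IPM in sham and 55.3, 47.8 and 47.1 in ONC, and sham 3 was the lowest sham pool. Introns held 30.4% to 32.7% of its reads in sham and 23.5% to 29.8% in ONC. In whole retina, fewer RGCs and less RNA per RGC cannot be told apart. Of the 31 RGC markers, 20 were lower and 2 higher in exon reads on the adjusted p alone, where 3.72% of all fitted genes were lower. The summed level of the markers was 856 to 902 RPKM in sham and 670 to 684 RPKM in ONC. No marker was at 0 in a pool. The list includes Irx2, Rasgrp2, Tppp3, Kcnd2, Pvalb and Pou4f2, which the paper reports among the most downregulated genes of these same libraries. The count and the sum follow in part from that choice and are a description. 9 of the 31 markers were kept genes, with a median intron log2 ratio of -0.20 (-0.17 without sham 3 and ONC 2), and Rbpms was the only member. The value of Rbpms itself was -0.72, and -0.74 without those pools. Of the 13 microglia and macrophage markers fitted, 7 were higher and 0 lower on the adjusted p alone. The share of all fitted genes higher at that threshold was not counted, and 0.827% were called higher with a fold change above 1.5. The summed level of the list was 41.2 to 45.2 RPKM in sham and 63.4 to 75.3 RPKM in ONC. This list includes C1qa, C1qb and C1qc, which the paper reports as upregulated in these libraries, so its count and sum are also a description. The part of these shifts in the values of the members was not tested.

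Ncam2, a neural cell adhesion molecule, had 4.08, 3.44 and 3.23 RPKM in sham and 2.72, 2.52 and 2.46 RPKM in ONC (-0.60 ± 0.11, adjusted p = 0.00309). Its intron level was 74.2, 76.0 and 106 IPM in sham and 66.2, 44.4 and 40.7 in ONC. Zbtb20, a zinc finger transcription factor, and Cntnap5a, a contactin-associated protein, were called at an adjusted p of 0.0480 and 0.0751, with log2 fold changes of -0.75 ± 0.21 and -0.70 ± 0.21. Each missed the threshold under 7 of 17 other settings, where the adjusted p reached 0.773 and 0.554. The intron log2 ratios of Ncam2, Zbtb20 and Cntnap5a were -0.76, -0.89 and -0.75, and without sham 3 and ONC 2 they were -0.49, -0.54 and -0.11.

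The other 22 members with a lower exon level on the adjusted p alone changed by less than 1.5-fold. They include the signal proteins Camk4, Igf1r and Bmpr2, which are a kinase and 2 growth factor receptors, the chromatin proteins Crebbp, Runx1t1, Tet3 and Hdac9, and Slc8a1, a sodium-calcium exchanger. These names were chosen after their values were seen. Their exon log2 fold changes were -0.39, -0.31, -0.46, -0.47, -0.57, -0.22, -0.24 and -0.48 in that order, and their intron log2 ratios were -0.85, -0.79, -0.85, -0.86, -0.85, -0.72, -0.70 and -0.80. Without sham 3 and ONC 2 the latter were -0.58, -0.50, -0.53, -0.76, -0.67, -0.48, -0.53 and -0.31. The exon call of Hdac9 (adjusted p = 0.0794, edgeR) was lost under 10 of 17 other settings, where the adjusted p reached 0.560.

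Members whose exon value was above 0 formed the other end. Fars2 (a mitochondrial phenylalanyl-tRNA synthetase), Gtf2f2 (a subunit of the general factor TFIIF), Diap2 (a formin) and Pola1 (the catalytic subunit of DNA polymerase alpha) had exon log2 fold changes of 0.24, 0.22, 0.20 and 0.19. Their intron log2 ratios were -0.89, -0.71, -0.83 and -0.72, and -0.77, -0.65, -0.46 and -1.04 without sham 3 and ONC 2. None of these 4 exon values passed the test, with adjusted p from 0.217 to 0.567 (edgeR). These 4 were also chosen after their values were seen.

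Another 7 of the 10 members with the most intron reads spanned 323 to 965 kb. Cadm2, a synaptic cell adhesion molecule, had 1642, 1811 and 3086 IPM in sham and 1129, 1165 and 1480 in ONC. Sham 3 was far above sham 1 and sham 2, and the groups did not overlap. Without sham 3 and ONC 2 its intron log2 ratio went from -0.79 to -0.40. Its exon level was 20.2 to 21.7 RPKM in sham and 18.8 to 21.3 RPKM in ONC (log2 fold change -0.18 ± 0.07, adjusted p = 0.166). Dscaml1, an adhesion molecule of the immunoglobulin family, had 998, 1275 and 1289 IPM in sham and 671, 692 and 652 in ONC. Its intron log2 ratio went from -0.82 to -0.78 without sham 3 and ONC 2. Its exon level overlapped between the groups, at 20.01 to 25.2 RPKM in sham and 21.1 to 25.03 RPKM in ONC.

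Rora, a nuclear receptor of the circadian clock, had 532, 697 and 946 IPM in sham and 471, 338 and 436 in ONC. In exon reads it stood at 22.6 to 23.9 RPKM in sham and 19.4 to 24.9 RPKM in ONC. Its intron log2 ratio went from -0.80 to -0.44 without sham 3 and ONC 2. It was the only member of 15 kept clock genes, whose median intron log2 ratio was 0.15 and 0.01 without those pools.

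Zfp385b, Bbs9 and Mdga2 are also among the members with the most intron reads. Zfp385b, a zinc finger protein, had 616, 692 and 816 IPM in sham and 422, 349 and 443 in ONC, and Bbs9, a subunit of the ciliary BBSome, had 545, 628 and 863 in sham and 397, 406 and 440 in ONC. Their exon log2 fold changes were -0.05 ± 0.08 and 0.02 ± 0.06. Mdga2, a membrane-anchored partner of neuroligins, had 453, 493 and 769 in sham and 368, 261 and 347 in ONC. Unlike the first 2 it had a lower exon level, 4.86, 5.44 and 5.44 RPKM in sham and 4.07, 4.03 and 3.88 RPKM in ONC (-0.52 ± 0.08, adjusted p = 0.000611, edgeR), a difference of less than 1.5-fold. The intron log2 ratios of Zfp385b, Bbs9 and Mdga2 were -0.81, -0.71 and -0.81, and without sham 3 and ONC 2 they were -0.60, -0.49 and -0.40.

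Synaptic and axonal adhesion genes hold neurons together at synapses and along axons, and many of them are very long. Of the 38 kept genes of that list 7 were members: Nlgn1, Lrrc4c, Cntnap5a, Dscaml1, Ncam2, Negr1 and Pcdh7. The list had a median span of 502 kb and a median intron log2 ratio of -0.45, and 35 of the 38 were below 0, where 31.2% of all kept genes were. Relative to the kept genes in the same class of span, its median was -0.14. The median of the list was -0.20 without sham 3 and ONC 2, and 31 were below 0, where 42.4% of all kept genes were. In exon reads 14 of the 48 fitted genes of the list were lower and 0 higher on the adjusted p alone. The share of lower genes was 3.72% of all fitted genes and 15.6% of the kept genes in the longest class of span. The part of length in this count was not tested. Negr1, an IgLON adhesion protein, had 467, 523 and 874 IPM in sham and 351, 282 and 389 in ONC. Nlgn1, the postsynaptic neuroligin, had 188, 268 and 356 in sham and 152, 155 and 186 in ONC. In both, sham 3 was the highest pool and no ONC pool reached the lowest sham pool. Their intron log2 ratios were -0.87 and -0.72, and -0.42 and -0.43 without sham 3 and ONC 2.

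Lrrc4c, Pcdh7 and Cntnap5a had overlapping groups. Lrrc4c, a netrin-G ligand, had 27.7, 37.4 and 64.5 IPM in sham and 29.0, 20.7 and 20.7 in ONC. Pcdh7, a protocadherin, had 76.8, 115 and 153 in sham and 78.7, 48.1 and 69.3 in ONC, with an exon log2 fold change of -0.52 ± 0.10 (adjusted p = 0.00394, edgeR). That call was lost under 4 of 17 other settings, with exon-exon reads, both limma settings and without sham 3 and ONC 2, and the adjusted p reached 0.704. In both, ONC 1 lay above sham 1. Cntnap5a had 61.8, 45.1 and 112 in sham and 56.3, 31.2 and 42.6 in ONC, with ONC 1 above sham 2. The intron log2 ratio of Lrrc4c went from -0.88 to -0.39 and that of Pcdh7 from -0.81 to -0.37 without sham 3 and ONC 2.

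Of 24 kept axon guidance genes 2 were members, Epha3 and Unc5c. The median intron log2 ratio of the 24 was -0.21, and -0.01 without sham 3 and ONC 2. Unc5c, a netrin receptor, had 64.8, 48.8 and 123 IPM in sham and 46.4, 41.0 and 46.3 in ONC, so the groups were apart by little except in sham 3. Its intron log2 ratio went from -0.82 to -0.29 without sham 3 and ONC 2. Cacna1c, the L-type calcium channel Cav1.2, was the only member of 19 kept sodium and calcium channel genes. It had 63.0, 56.4 and 91.8 in sham and 33.9, 33.2 and 59.2 in ONC, a log2 ratio of -0.74 that was -0.36 without sham 3 and ONC 2. Dcp1b, a decapping factor, lies within the span of Cacna1c in the files, with exon reads equal to 137% of the intron reads of Cacna1c. The kit did not keep the strand, so the intron value of Cacna1c is uncertain.

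The lists that follow held no member. The 19 kept glutamate receptor genes had a median span of 378 kb and a median intron log2 ratio of -0.07, beside 0.19 for all kept genes, and 12 were below 0. Relative to the kept genes in the same class of span the median was 0.09, and without sham 3 and ONC 2 it was 0.03 with 9 below 0. The lowest of them was Grid1, the delta glutamate receptor, which lay just beyond the members. The 13 kept GABA and glycine receptor genes had a median of 0.10, and the 40 spliceosome and RNA binding genes, which handle introns, a median of 0.32. The 6 kept genes of the Atf4 and amino acid stress list had a median of 0.73 with none below 0. In exon reads 20 of the 24 fitted genes of that list were higher on the adjusted p alone. The share of all fitted genes at that threshold was not counted, and 0.827% were called higher with a fold change above 1.5. The paper reports ATF4 as its top predicted regulator from these same libraries, so this count follows in part from the choice of the list. Medians were above 0 for the cone (0.63), bipolar (0.28), amacrine (0.25), horizontal (0.34), Muller glia (0.32), microglia (0.56), vascular (0.24) and pigment epithelium (0.50) markers, and for the activity-dependent (0.21) and cholesterol synthesis (0.49) genes, with 1 to 12 kept genes in each. The median of all kept genes, 0.19, was also above 0. Relative to the kept genes in the same class of span, the medians were smaller for most of these lists. They were 0.11 for the cone, 0.06 for the bipolar, 0.05 for the horizontal and -0.01 for the Muller glia markers. They were 0.00 for the pigment epithelium markers, 0.02 for the spliceosome genes and 0.29 for the Atf4 list. For the amacrine, microglia and vascular markers they were 0.16, 0.19 and 0.21. The cholesterol synthesis genes stood at 0.16, the GABA and glycine receptor genes at 0.06 and the activity-dependent genes at 0.22, which was not smaller. The medians of these 13 lists without sham 3 and ONC 2 ranged from -0.02 (vascular markers) to 0.55 (Atf4 list).

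What the members shared beyond the rule was length. Their median span was 216 kb, from 28.6 kb (Zfp781) to 2057 kb (Lrp1b), against 38.5 kb for the kept genes. Of the 100, 53 were in the longest class of the kept genes, 88 in the 3 longest classes and 3 in the 5 shortest, and 5 were longer than 1000 kb. Their exons together had a median of 5512 bases, against 3451 bases, and they had a median of 11.5 exons, against 12. A median member had 251 intron reads per pool, against 222 for the kept genes, but 1.53 per kb of intron against 6.89. The members therefore had about as many intron reads as other genes, spread over much longer introns.

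Over all kept genes the median intron log2 ratio went from 0.55 in the shortest class of span to -0.33 in the longest, and the median exon log2 fold change from 0.06 to -0.13. When each ratio was taken relative to the median of the kept genes in the same class, the median of the members was -0.60, and 40 of the 100 were again among the lowest 100. Zc3h7a, Hk2, Esrrb, D16Ertd472e and Zfp781 were then the 5 lowest. Length moved with the intron level most in sham 3 and ONC 2, and its part in the values of the members was not tested.

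Intron reads of the members were uniquely mapped less often than those of the kept genes, with a median of 99.0% against 99.9%. The lower quartile was 96.5% against 98.7%. In 11 of the 100 less than 90% of the intron reads were uniquely mapped, a count not made over the kept genes. The lowest were Rock1, a serine/threonine kinase (45.4%), D16Ertd472e (75.2%) and Zc3h7a (77.6%). Rock1, like Zc3h7a, has an snRNA gene within its span. RefSeq places a gene of a noncoding class such as snRNA or snoRNA within 11 members in all. That count was not made over the kept genes either. Unique reads alone kept 85 of the 100 members in the list, with a median log2 ratio of -0.83. Another gene of the files lay within the span of 46 members, but it had exon reads in 4 of them and amounted to at least 10% of the intron reads in Cacna1c alone.

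The last members and the first genes beyond them differed little. Bcl2, the inhibitor of apoptosis, Abcg1, a cholesterol exporter, and Hdac9, a histone deacetylase, at ranks 98 to 100, had ratios of 0.612, 0.614 and 0.614. Plcb1, a phospholipase C, LOC100862134 and Grid1, the next in rank, had 0.614, 0.614 and 0.615. The counting error of the log2 ratio was 0.13 for Bcl2 and 0.08 at the median over the members, so the order of genes near the threshold is not fixed by these counts. Counting error excludes the spread between pools.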

How the data were processed

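RNA from mouse retina (3 ONC and 3 sham pools) was sequenced from unstranded TruSeq RNA libraries. The authors mapped reads with CLC Genomics Workbench and deposited counts of gene, exon, exon-exon and intron-exon reads per gene, and RPKM, for each pool. The deposited counts are raw, and the deposited RPKM divides exon reads by exon length and by mapped reads. The submitters' processing notes name the build mm9, whereas positions in the files match RefSeq genes of GRCm38, and those positions were used. Intron reads were gene reads minus exon reads. The replicate number did not pair pools.

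Exon reads were tested with edgeR 4.0.16 (R 4.3.3; quasi-likelihood, TMM, Benjamini-Hochberg over 13670 genes). The test was checked on simulated data. limma 3.58.1 and DESeq2 1.42.0 served as alternatives. With 3 pools against 3, permutation could not reach 0.05, so no single-value test was run. Named genes were the 10 lowest ratios, the 10 with most intron reads, those called in exon reads, those in the gene lists and those at the threshold. Members and lists were chosen with earlier results of these data known. Exon-exon reads, ratios relative to span and the removal of sham 3 with ONC 2 or with ONC 1 were added after seeing the data. Depth was 17343945 to 20358008 exon reads and 2950024 to 4499502 intron reads of the kept genes per pool. Counting errors cover sampling of reads only. Values of 1 named gene are not reported here.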

Additional observations from a re-analysis of the deposited data

How the results depend on the processing

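The median intron log2 ratio of the members (-0.79) stayed below 0 under each alternative run. Each alternative used pools that had chosen the members, so this follows in part from the choice. The median was -1.27 with division by the total exon reads, where the kept genes lay at -0.23. It ranged from -0.94 to -0.62 when 1 pool was left out. The intron minus exon difference ranged from -0.70 to -0.41 when 1 pool was left out and was -0.36 without sham 3 and ONC 2 together. Of the 100 members, 51 were again among the lowest 100 with a minimum of 20 reads, 62 with 100 reads, 26 with 200 reads, 54 without overlapping genes, 62 with medians in place of means, 40 relative to the span class, 40 without sham 3 and ONC 2 together, 46 without sham 3 and ONC 1 together, and 56 to 79 without 1 pool. The 62, 26 and 54 are all the members that those limits left to rank. The number called lower in exon reads (6) was 3 after scaling by the total reads on genes, 2 and 1 with limma on log2(RPKM + 0.1) and log2(RPKM + 1), 3 without sham 3 and ONC 2, and 2 to 10 without 1 pool. The 2 was without ONC 2 and the 10 without ONC 1. The 28 lower on the adjusted p alone became 14, 7 and 8 under the first 3 of these, 8 without both pools, 12 with exon-exon reads and 12 to 48 without 1 pool. The 0 higher (0 also by DESeq2) became 2 with division by all reads and 1 with each limma setting, and 0 to 1 without 1 pool. The cause was not tested. The replicate block gave 24 lower and 6 called lower. Pools with the same number did not deviate together, with correlations of -0.07, -0.02 and 0.00 in exon reads and -0.27, 0.19 and 0.03 in intron reads, so the numbers are names only.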
